A study of Caenorhabditis elegans with 2 samples.

Results

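Bidirectional promoters carried 144 of the RNA polymerase II summits in the reproducible set (IDR set) of wild-type Caenorhabditis elegans larvae, 6.92% of the whole set (95% Wilson interval 5.90 to 8.09). A summit is the highest base of a peak. It was counted here when it lay within 500 bp of the starts of at least 2 protein-coding genes on opposite strands, with the minus-strand start at the lower coordinate, so that the genes are read away from each other. The 144 summits served 147 gene pairs and 290 genes: 140 summits had 1 such pair and 4 had 2. Of the other IDR summits, 824 lay near starts on 1 strand, 4 near starts on opposite strands in other arrangements, and 1110 near no protein-coding start. Within the IDR set the members were chosen by position alone. The IDR set itself holds only the strongest pooled peaks by signal, so all members are strong peaks.

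The study has 1 group, the N2 strain at the L4 larval stage, with males and females pooled and whole animals taken. The assay was ChIP-seq, the sequencing of DNA pulled down with a protein, here AMA-1. AMA-1 is the largest subunit of RNA polymerase II and holds its active site. The labels name 2 biological replicates and say no more about how they were raised, and there is no contrast between conditions. Whole animals mix all tissues, so a summit cannot be assigned to a cell type, and 2 genes of a pair that are used in different cells cannot be told apart from 2 genes used in the same cell. Read depth is unknown here. The intervals given cover the number of peaks, pairs or genes only.

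At a divergent promoter, a pair of genes on opposite strands start close together and share the stretch of DNA between them. RNA polymerase II assembles separately for each direction, so one stretch can hold initiating or paused polymerase for either gene, and a peak of AMA-1 does not show the direction of transcription. In C. elegans the first part of many transcripts is removed when a short spliced leader is joined to the message, so an annotated start can lie downstream of the base where the polymerase began. Many worm genes also lie in operons, where 1 promoter serves a row of genes on the same strand.

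The DNA between the starts is printed for 4 of the pairs, because in these the summit lay between the starts and the whole stretch is short enough to be seen with both of its edges. They are among the strongest such pairs, with gaps under 300 bp, and lie on chromosomes III and V. The sequences come from the RefSeq genome of WBcel235, the same assembly as ce11. Each is the forward strand, so the minus-strand gene begins at the left edge and reads leftwards, and the plus-strand gene begins at the right edge. Capitals mark matches to any of the 6 motifs searched on both strands. One is TTTCAG, the acceptor sequence typical of trans-splicing. Another is TATAAA, the core of the TATA box. The next is GGGCGG, a GC box. TGATAA holds the core that GATA factors prefer. The E-box CACGTG was searched too. The longest motif searched was CTGCGTC. The stretch of ctf-4 and eef-1G is chrV:10965539-10965719, with the summit at base 155 of 181. The stretch of jmjd-4 and mev-1 is chrIII:10334018-10334277, with the summit at base 147 of 260. The stretch of ddx-17 and aip-1 is chrV:14012052-14012333, with the summit at base 164 of 282. The stretch of polh-1 and rps-22 is chrIII:1950269-1950535, with the summit at base 192 of 267.
ctf-4/eef-1G: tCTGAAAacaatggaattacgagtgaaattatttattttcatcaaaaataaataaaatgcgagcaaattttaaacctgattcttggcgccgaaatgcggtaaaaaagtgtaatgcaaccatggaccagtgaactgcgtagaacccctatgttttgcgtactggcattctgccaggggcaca
jmjd-4/mev-1: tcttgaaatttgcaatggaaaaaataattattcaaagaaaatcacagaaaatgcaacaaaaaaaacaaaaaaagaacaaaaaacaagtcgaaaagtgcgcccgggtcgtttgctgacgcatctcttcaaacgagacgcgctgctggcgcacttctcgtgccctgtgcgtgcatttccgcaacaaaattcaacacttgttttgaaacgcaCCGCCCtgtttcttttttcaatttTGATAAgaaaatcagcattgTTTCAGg
ddx-17/aip-1: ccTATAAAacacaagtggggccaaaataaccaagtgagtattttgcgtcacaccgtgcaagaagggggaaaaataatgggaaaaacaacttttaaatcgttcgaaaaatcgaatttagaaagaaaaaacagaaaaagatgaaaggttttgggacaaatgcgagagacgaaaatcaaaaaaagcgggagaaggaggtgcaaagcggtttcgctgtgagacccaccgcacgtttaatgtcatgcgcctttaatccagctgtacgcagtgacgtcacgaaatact
polh-1/rps-22: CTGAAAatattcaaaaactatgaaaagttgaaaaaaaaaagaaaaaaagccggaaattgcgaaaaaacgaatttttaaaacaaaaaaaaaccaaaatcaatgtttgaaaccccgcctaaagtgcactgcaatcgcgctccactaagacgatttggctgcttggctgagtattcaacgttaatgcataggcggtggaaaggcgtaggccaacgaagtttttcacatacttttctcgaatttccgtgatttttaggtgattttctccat

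In 3 of these 4 stretches a TTTCAG match reaches to within a few bases of an annotated start and reads in the direction of the gene that begins there. It does so at the minus-strand edge for ctf-4 and for polh-1, and at the plus-strand edge for mev-1, whose stretch also holds a GGGCGG and a TGATAA match. The stretch of ddx-17 and aip-1 holds only a TATAAA match. Of the 8 stretches read by the same rule, these 3 were the ones with such a match within 10 bp of a start.

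Genes with a divergent partner had a summit near the start more often than the other protein-coding genes. These others do not all stand alone, since they include genes that start close behind another gene's end. Counting IDR summits no farther than 500 bp from a start, 1113 of all 19973 protein-coding genes (5.57%) had one. Of the 3539 genes that had a divergent partner no more than 1000 bp away, 339 had one (9.58%, 8.65 to 10.6), and of the 16434 others 774 did (4.71%, 4.40 to 5.04). The shares were 6.47% against 4.14% in replicate 1 and 10.5% against 4.92% in replicate 2, with as many of the strongest peaks taken from each as the IDR set holds. For 290 of the 339 genes (85.6%) the summit was one that lay within 500 bp of both starts, so each such summit counts for the gene on either side of it. Genes with a divergent partner also differed in kind from the rest, as the gene lists further on show, and the part of this in the difference is given there.

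Of the 1794 divergent pairs in the annotation, 147 held an IDR summit within 500 bp of both starts (8.19%, 7.01 to 9.55). In the replicates' own strongest peaks, 99 pairs (5.52%) had one in replicate 1 and 149 (8.31%) in replicate 2, a mean of 6.91% ± 1.97 (SD, n = 2). The members made up 4.61% of those peaks in replicate 1 and 7.06% in replicate 2 (5.84% ± 1.73, SD, n = 2). Replicate 1 was thus the lower of the pair on both counts. In the full lists of 30000 peaks, 495 pairs (27.6%) had a summit in replicate 1 and 673 (37.5%) in replicate 2.

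The share of pairs with a summit was highest at gaps of 201 to 600 bp between the starts. At gaps of 1 to 200 bp, 12 of 248 pairs had one (4.84%). It rose to 64 of 484 (13.2%) at 201 to 400 bp and was 48 of 408 (11.8%) at 401 to 600 bp. It was 21 of 364 (5.77%) at 601 to 800 bp and 2 of 290 (0.690%) at 801 to 1000 bp. The stretch of DNA that lies within 500 bp of both starts shrinks as the gap grows, which sets part of the fall: per megabase of such DNA there were 55.8, 187.8, 240.8, 187.8 and 66.2 hits in the same order. The lowest values therefore stood at both ends of the range of gaps when this was allowed for, although the widest bin rests on 2 pairs. Replicate 1 followed the same order of bins, from 2.42% to 9.71%, 7.60%, 3.57% and 0.690%. Replicate 2 did so too, with 5.24%, 13.6%, 10.5%, 7.14% and 0.345%.

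**Figure D1:**
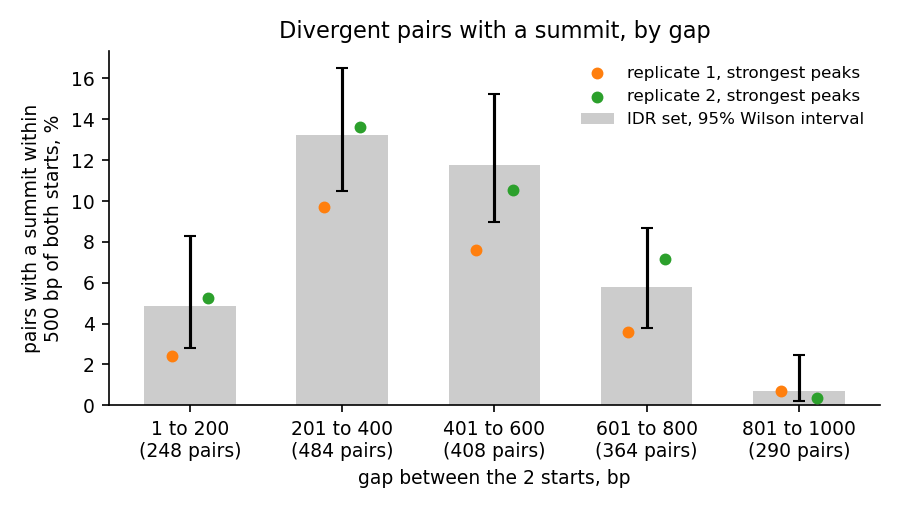
Share of divergent gene pairs with a summit within 500 bp of both starts (y axis, percent) by the gap between the starts (x axis, bp, with the number of pairs). Bars are the IDR set with 95% Wilson intervals and points are each replicate's strongest peaks; the highest bar is at 201 to 400 bp (13.2%).

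Most of the summits lay in the DNA between the starts and not in either gene. Of the 144, 118 (81.9%) were between, 8 were inside the minus-strand gene and 18 inside the plus-strand gene. The between share was 80.2% in replicate 1 and 79.6% in replicate 2 (79.9% ± 0.436, SD, n = 2). At gaps over 500 bp the rule itself requires a summit between the starts, so the smaller gaps are the ones to read. There, 72 of 98 summits (73.5%, 64.0 to 81.2) lay between, and the replicates gave 73.2% and 69.4%. Over all annotated pairs with such gaps, 40.1% of the bases open to a summit lie between. Few members had the smallest gaps, where the least of the open DNA lies between. The share at the members' own gaps would therefore be higher than 40.1%, and it was not computed. The between share was 33.3% of 12 summits at gaps of 1 to 200 bp, 72.1% of 61 at 201 to 400 bp and 97.9% of 48 at 401 to 600 bp.

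The distance to the nearer start grew with the gap, a rise that the rule itself sets in large part. A summit between the starts cannot be farther from the nearer one than their midpoint is. At gaps over 500 bp, the limit to the farther start also keeps a summit away from the nearer one. The median distance over all members was 144.5 bp to the nearer start (quartiles 63.0 to 207.2) and 81.5 bp to the midpoint of the starts. By gap, the median to the nearer start was 55 bp at 1 to 200 bp, 71 bp at 201 to 400 bp, 178 bp at 401 to 600 bp and 264 bp at 601 to 800 bp. The nearer start was the plus-strand one at 87 summits and the minus-strand one at 56, and the median offset from the midpoint was 27.5 bp towards the plus-strand gene. It was 17.75 bp in replicate 1 and 24.5 bp in replicate 2, again towards the plus strand. At 1-strand starts with no gene end nearby, the IDR summits also lay on the higher-coordinate side of their mirror position: the median was 29.0 bp before the start at 161 plus-strand genes and 74.0 bp before it at 163 minus-strand genes. Near gene ends, such a shift would put plus-strand summits farther past the end than minus-strand ones. This was not seen in the IDR set or in the strongest peaks of either replicate. The medians past plus-strand and minus-strand ends were 128 and 141 bp in replicate 1 and 61 and 98 bp in replicate 2. In the full lists of both replicates, the plus-strand median was the larger. The part of such a shift in the offset was not tested.

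**Figure D2:**
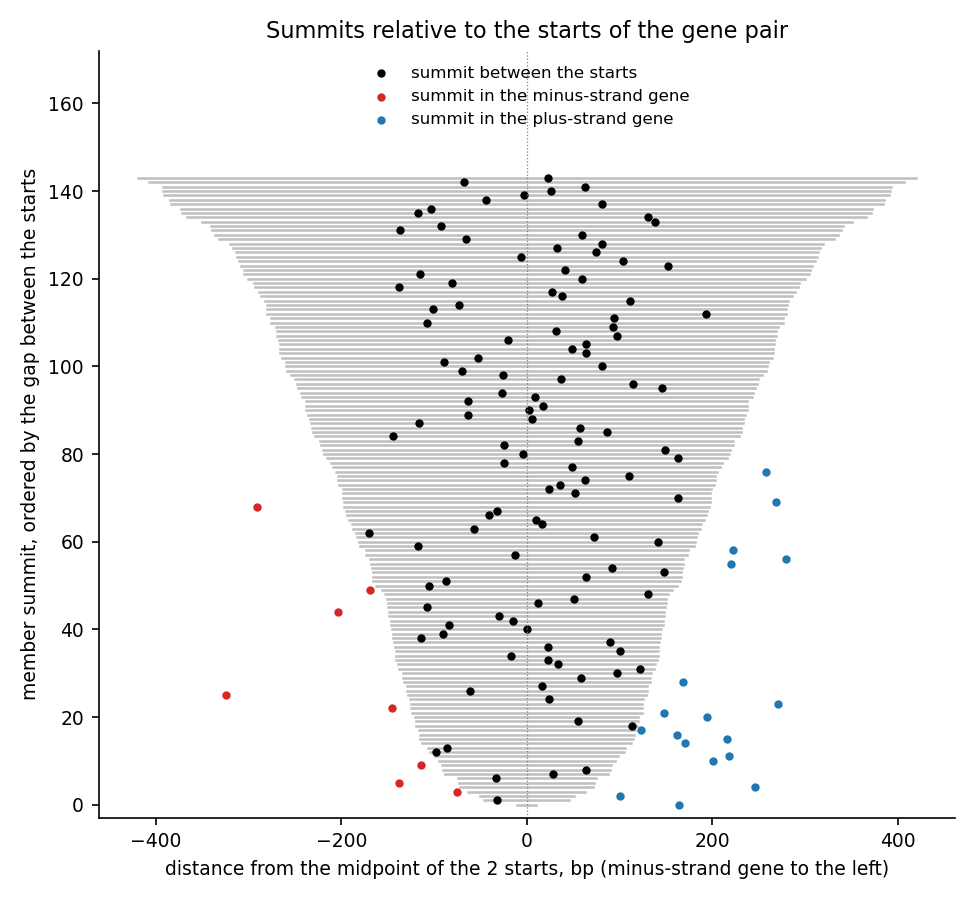
Each of the 144 summits (points) relative to the midpoint of its gene pair's starts (x axis, bp, minus-strand gene to the left), ordered by gap (y axis). Grey lines span the DNA between the starts; 118 points lie on their line, 8 in the minus-strand gene and 18 in the plus-strand gene.

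The profile around a start differed between genes with and without a divergent partner. For genes with one, the highest 100 bp bin of IDR summits was from 300 to 201 bp upstream, with 24.3 summits per 1000 genes, against 7.63 in the first 100 bp of the gene. Genes without one had most summits in their first 100 bp, 14 per 1000 genes, against 5.36 from 300 to 201 bp upstream. Replicate 1 had its highest bin at the same places (15.8 and 11.1 per 1000 genes), and replicate 2 had its highest from 200 to 101 bp upstream for paired genes (24.3) and in the first 100 bp for the others (14.8). A summit in the partner gene counts as upstream, which adds to the upstream bins of paired genes. The surroundings also differed: a protein-coding gene end lay within 500 bp of 7 member summits (4.86%) and of 500 of the 824 at 1-strand starts (60.7%). A start just behind a gene end is typical of operons, and the geometry of a divergent gap leaves little room for an end.

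**Figure D3:**
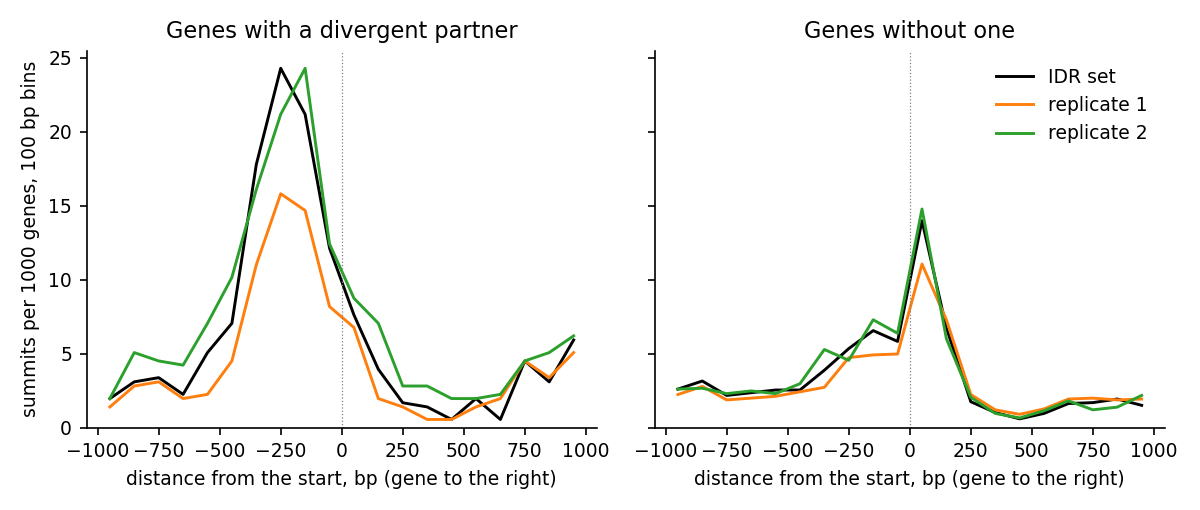
Summits per 1000 genes (y axis) in 100 bp bins by distance from the gene start (x axis, bp, gene to the right), for genes with a divergent partner (left) and without one (right). Lines are the IDR set and each replicate's strongest peaks; paired genes peak upstream (24.3 at 300 to 201 bp before the start) and the others in the first 100 bp (14).

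The strongest summit at a bidirectional promoter belonged to ift-43 and mdt-26. The authors' signal value, which ranks peaks within a list and is not comparable between lists, was 707.1 in the pooled list, 399.1 in replicate 1 and 322.4 in replicate 2. It ranked 4, 4 and 2 in those lists. The summit lay 71 bp inside mdt-26, a subunit of Mediator, the complex that links regulators to RNA polymerase II, and 466 bp from the start of ift-43, which encodes an intraflagellar transport protein. Next was tim-1 with Y75B8A.23, at 442.6, 284.3 and 166.1 (ranks 10, 11 and 13). An SL2 spliced leader gene, sls-2.8, lay within 500 bp of that summit, so its signal cannot be assigned to the pair.

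After these, the signal dropped to 152.0 at the third member, icl-1 with srh-2. That summit lay 55 bp inside icl-1, the glyoxylate cycle enzyme, and had 113.3 in replicate 1 (rank 76) and 30.6 in replicate 2 (rank 1021); srh-2 is a chemoreceptor gene. T19C4.24 with nlp-33, a neuropeptide-like gene, had 147.4 in the pooled list, 127.8 in replicate 1 (rank 51) and 17.5 in replicate 2 (rank 3853). These matched summits stood much higher in replicate 1's order than in replicate 2's. At icl-1, however, replicate 2 also had a stronger peak of 67.1 on the icl-1 side, within 500 bp of the midpoint of the starts but not the one matched. F40F11.3 with mig-38, a gene of cell migration, was steadier at 143.8, 94.6 and 59.5 (ranks 122, 124 and 172). Only the first 2 members were among the 100 strongest IDR peaks (1.39% of members, where 4.803% of all IDR peaks are).

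The rest of the 15 strongest were led by ribosomal protein genes. The summit of rpl-12 and lin-54 had 132.5 in the pooled list, 86.2 in replicate 1 and 46.6 in replicate 2. It lay 94 bp inside rpl-12, while lin-54 encodes a DNA-binding protein of the DREAM complex, a repressor of cell cycle genes. For rpl-20 and Y17G9B.5 the values were 127.2, 82.2 and 44.7, with the summit between the starts. For ska-3, of the spindle and kinetochore complex, and rps-12 they were 122.1, 91.95 and 29.4, with a small nucleolar RNA gene within 500 bp. The pair rps-20 and ekl-4 had 113.8, 77.5 and 38.0. In all 4 the replicate 1 rank was the higher one.

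The other pairs of the 15 held no ribosomal protein gene. T26A8.4 and pdtf-1 had 119.8, 69.5 and 48.5, and C17H12.2 and vha-8, a subunit of the vacuolar proton pump, had 110.7, 58.7 and 50.7. For C34E10.10 and atp-2, the beta subunit of the mitochondrial ATP synthase, they were 107.1, 64.5 and 42.9. The pair lin-7, a cell polarity gene, and elof-1, a transcription elongation factor, had 107.6 in the pooled list, 43.0 in replicate 1 and 63.7 in replicate 2. The summit stood 18 bp before elof-1. wapl-1, the cohesin release factor, and htz-1, the histone variant H2A.Z, had 106.3, 75.9 and 31.75.

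A single gene pair held more than 1 member summit. H27M09.5 and syp-4, a component of the synaptonemal complex of meiotic chromosomes, start 552 bp apart, and their summits lay 169 and 370 bp from the H27M09.5 start. The stronger had 108.2 in the pooled list and 79.6 in replicate 2 (rank 82), and no replicate 1 summit lay within 100 bp of it. The weaker had 66.6, 31.4 and 25.3. A small nuclear RNA gene, H27M09.6, lay within 500 bp of both.

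Ribosomal protein genes made up 28 of the 290 genes at these promoters. Of 82 cytosolic ribosomal protein genes found by name, 48 had a divergent partner, and these 28 (58.3%) were in a pair with a member summit, against 290 of 3539 (8.19%) over all genes with a partner. In the replicates' own peaks, 25 were in replicate 1 and 21 in replicate 2. They spanned the signal range, from rpl-12 at 132.5, rpl-20 at 127.2 and rps-12 at 122.1 down to rps-6 at 47.0. Each value is that of the shared summit and cannot be assigned to 1 gene of the pair. At 22 members with 1 ribosomal protein gene, the summit was nearer that gene in 10 (45.5%). The median distance was 295.5 bp to it and 213.5 bp to the partner. The replicates gave 36.8% and 35.3%. Translation factors were at 4 of 23: eef-1G at 94.0, eef-1B.1 at 91.6, eef-2 at 89.0 and eef-1A.1 at 72.7. Mitochondrial ribosomal proteins were at 5 of 24 (20.8%), led by mrps-7 (67.0), and aminoacyl-tRNA synthetases at 1 of 11, ears-2 (50.3). For mitochondrial ribosomal proteins, replicate 1 had 1 gene and replicate 2 had 4.

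A partner was not needed for a summit at a ribosomal protein gene. With any IDR summit within 500 bp of the start counted, 30 of 48 with a divergent partner had one (62.5%) and 17 of 34 without. Over the genes of 17 lists of cell maintenance functions, core histones included, the shares were 25.5% with a partner and 21.1% without. Core histone genes went the other way, with a summit at 4 of 63 with a partner and 3 of 10 without. Their inclusion narrows the difference within the lists. Genes in no list had 7.66% with a partner and 4.41% without. With core histones counted in the lists, the gap between genes with and without a partner was thus larger, as a ratio, among genes outside the lists.

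In the IDR set, genes of energy supply, RNA processing and protein quality were also above the share of all paired genes. Oxidative phosphorylation had 10 of 25 (40.0%), led by atp-2 (107.1), atp-1 (101.9) and mev-1 (86.5), a subunit of complex II. With complex I subunits that the name pattern missed added, a choice made after the values were seen, it was 11 of 38 (28.95%). Splicing factors had 11 of 38 (28.95%), among them prp-40 (83.3), and chaperones 8 of 31 (25.8%), with cct-8 (100.4), hsp-110 (79.7) and dnj-22 (70.2). The nuclear pore and transport list had 5 of 22 (22.7%), led by npp-3 (84.3), and the proteasome 4 of 21 (19.0%), led by rpn-3 (79.7). Among smaller lists, Mediator had 3 of 7, the vacuolar ATPase 2 of 6 and RNA polymerase II with its general factors 3 of 15, where tlf-1 and cdk-8 share 1 summit (89.4). The replicates' own peaks (replicate 1, then 2) gave 6 and 10 genes for oxidative phosphorylation, 5 and 6 for splicing and 7 and 8 for chaperones. They gave 5 and 8 for the nuclear pore list, 2 and 7 for the proteasome and 1 and 2 for both Mediator and the vacuolar ATPase. The RNA polymerase II list had 0 and 4.

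Other lists were near or below the share of all paired genes. Vesicle traffic had 5 of 41 (12.2%), ubiquitin ligation 3 of 24 (12.5%) and cuticle collagens 2 of 20, dpy-13 at 95.8 and col-38 at 71.95. Replication and cell cycle genes had 1 of 29 (3.45%), rfc-4, whose partner is eef-1A.1. Nuclear hormone receptors had 1 of 18 and chemoreceptors 2 of 145 (1.38%). Core histone genes had a divergent partner in 63 of 73 cases, since most lie in clusters of opposed copies, yet only 3 were in a pair with a summit: his-35 and his-41 with each other (96.7) and htz-1. Most histone genes are near-identical copies, and the sources used here do not give how reads that match several places were treated.

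**Figure D4:**
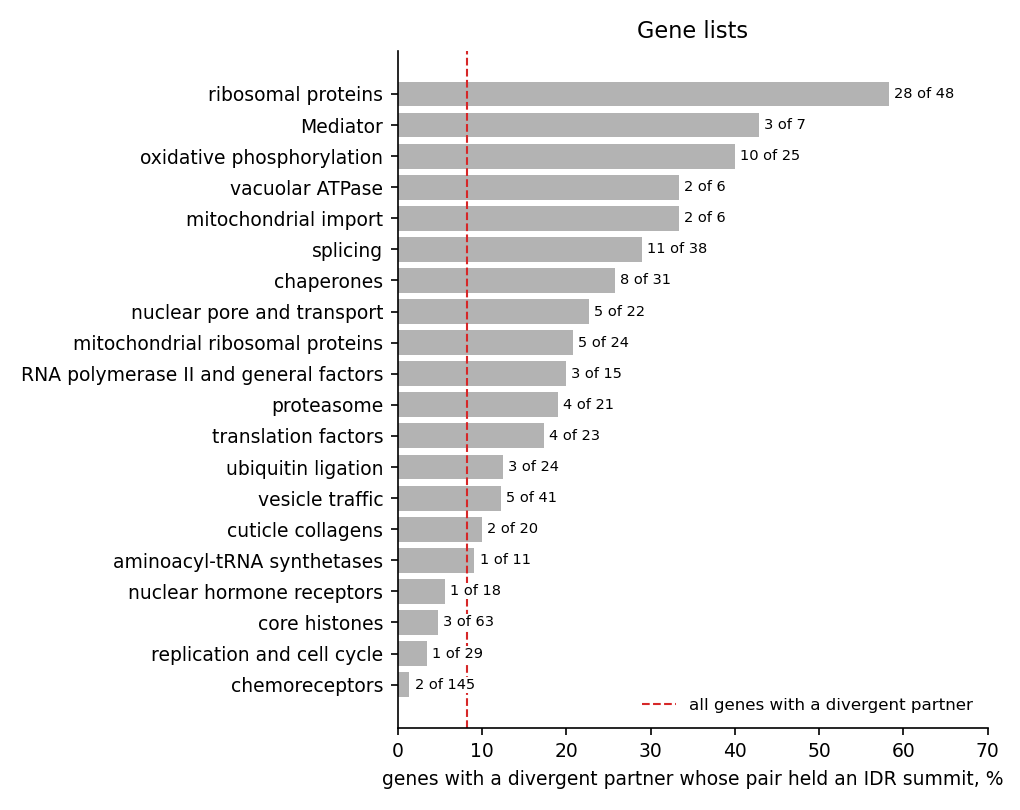
Percent of each gene list's members with a divergent partner whose pair held an IDR summit (x axis), with the counts beside each bar. The dashed line is the share over all genes with a divergent partner (8.19%); ribosomal proteins reach 58.3% and chemoreceptors 1.38%.

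A listed gene was often paired with a gene of no list. Both genes were listed in 18 of the 147 pairs, 1 gene in 66 and neither in 63. Set against all divergent pairs, a summit was found at 18 of 110 with both listed (16.4%), 66 of 405 with 1 (16.3%) and 63 of 1279 with neither (4.93%). At 63 members with 1 gene in the 17 lists, the summit was nearer that gene in 31 (49.2%). Pairs with both genes listed included rps-10 with rpl-24.1 (89.4), rps-14 with rpl-36 (76.4), and rpl-39 with rps-30 (58.3), in each of which both genes encode ribosomal proteins, and rsp-2 with rsp-1 (56.1), a pair of SR splicing factors. hsp-110, a chaperone, and rpn-3, of the proteasome, shared a summit of 79.7 in the pooled list, 34.3 in replicate 1 and 45.9 in replicate 2.

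Nearly all of these summits were found again in each replicate, whose lists also went into the IDR set. A replicate 1 summit lay within 100 bp of 136 of the 144 (94.4%), where 93.0% of all IDR summits had one. Replicate 2 had one at 137 (95.1%), where 88.3% of all did. Both replicates had one at 129 (89.6%), where 81.7% of all did, and no member lacked one in both. Among the strongest peaks of each replicate, 59 members (41.0%) were matched in both, where 35.0% of all were, and 14 in neither. By gene pair, the strongest peaks of the replicates shared 64, which is 64.6% of the 99 in replicate 1 and 43.0% of the 149 in replicate 2.

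Among the 129 members matched in both full lists, 73 (56.6%) ranked higher in replicate 2, where 48.5% of all IDR summits did. Their share was close to that of summits at 1-strand starts (54.1%), while summits near no start were at 42.5%. The rank percentile is the percent of a replicate's 30000 peaks whose signal ranks at or below that of the peak. Its median over members was 95.04 in replicate 1 and 96.17 in replicate 2.

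Single matched summits differed far more between the replicates than these medians. The summit of mdh-2, the mitochondrial malate dehydrogenase, and F20H11.4 had a signal of 10.7 in replicate 1 (rank 14859) and 32.3 in replicate 2 (rank 888), 46.6 percentile points apart. The summit of mat-1, a subunit of the anaphase-promoting complex, and prp-31, a splicing factor, had 11.7 (rank 13142) and 35.1 (rank 715). F53C11.4 with F53C11.5, egl-45 with kcmf-1, and T24G10.2 with disl-2 were also higher in replicate 2, by 36.3, 33.3 and 22.5 points. The largest shifts towards replicate 1 were smaller. ddo-2, a D-aspartate oxidase, with F25E5.8 had 62.3 (rank 354) and 13.8 (rank 6060), 19.0 points apart. The next 4, tmem-107 with rps-26, lin-53 with nra-2, vps-25 with uba-2 and fbxb-85 with hex-3, were between 16.9 and 18.6 points apart. These shifts belong to the summit that was matched and not to the pair as a whole: within 500 bp of the midpoint, replicate 1 had a further peak of 26.9 at F53C11.4 and F53C11.5, where the matched one had 12.9, and replicate 2 had one of 30.6 on the ddo-2 side.

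**Figure D5:**
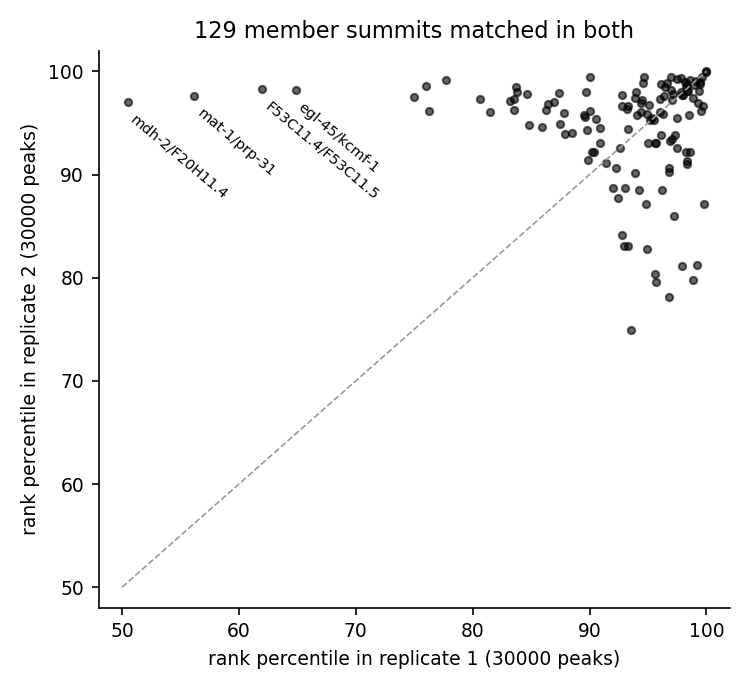
Rank percentile of the 129 member summits matched in both replicates, in replicate 1 (x axis) and replicate 2 (y axis), each among 30000 peaks; the dashed line marks equal rank. The 4 named pairs stand at the far left, high in replicate 2 only.

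The side of the stronger peak was mostly the same in both replicates. Within 500 bp of the midpoint of the starts, 144 of the 147 pairs had a peak in both replicates. In 1 of these, dnsn-1 with C24H12.4, the peak of each replicate was exactly at the midpoint and had no side. In 124 of the other 143 (86.7%, 80.2 to 91.3) the strongest lay on the same side. That was the plus-strand side in 77 and the minus-strand side in 47. Of the rest, 8 changed from minus to plus and 11 from plus to minus between replicates 1 and 2. A peak on each side was less common, in 22 pairs in replicate 1, 53 in replicate 2 and 15 in both, and in 13 of these 15 the side was the same. These pairs were kept for a summit of the IDR set, which was made from both replicates, so a peak that recurs at the same place is partly built in. No share for other pairs was taken to set beside the 86.7%. A side is a position and not a direction of transcription.

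Some pairs show what these numbers look like. At rpl-12 and lin-54 a peak was found on the rpl-12 side alone, with 86.2 in replicate 1 and 46.6 in replicate 2. At ift-43 and mdt-26 the mdt-26 side had 399.1 and 322.4, and the ift-43 side had no peak in either. At hsp-110 and rpn-3 the side differed: replicate 1 had 34.3 on the rpn-3 side alone, while replicate 2 had 45.9 on the hsp-110 side alone. Both values are matches, within 100 bp, of the same member summit. It lay 198 bp from the hsp-110 start and 246 bp from the rpn-3 start, so a small move past the midpoint changed its side. At rpl-39 and rps-30 replicate 1 had 42.1 on the rps-30 side alone and replicate 2 had 20.3 on the rpl-39 side and 6.42 on the other. The stronger side changed there too, again with 42.1 and 20.3 matched to a single member summit, 287 and 212 bp from the starts. How far a peak lay from the midpoint was not considered in giving it a side.

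Among the strongest peaks, the height of these summits was close to that of the others. Within the IDR set the median signal was 62.3 (quartiles 51.8 to 79.7) at bidirectional promoters, 64.0 (53.7 to 83.5) at 1-strand starts and 61.8 near no start. The replicates' strongest peaks gave medians of 42.4, 41.6 and 40.3 (replicate 1) and of 30.7, 30.5 and 30.3 (replicate 2). Members were thus slightly below 1-strand starts in the IDR set and slightly above them in each replicate, and no order is read from this. A short non-coding RNA gene lay within 500 bp of 8 members (5.56%, against 7.35% of all IDR summits), and these had a median of 81.0 against 61.8 for the rest.

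Genes of pairs with a summit more often had another gene close behind them, an arrangement typical of operons. A same-strand protein-coding start lay within 500 bp of the gene's end for 104 of 290 genes of pairs with a summit (35.9%) and for 728 of 3249 genes of pairs without one (22.4%), and for 18.03% of all genes. At least 1 gene of the pair had such a follower in 85 of 147 pairs with a summit (57.8%) and 628 of 1647 without (38.1%). Median gene length was much the same, 1784 and 1774 bp. TTTCAG, read in the direction of the gene, lay within 50 bp of the start of 122 of the 290 genes (42.1%), of 26.7% of genes of pairs without a summit and of 28.2% of all.

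CACGTG was the motif whose share differed most, as a ratio, between members and the other summits. It reads the same on both strands and lay within 150 bp of 3 of 144 members (2.08%, 0.711 to 5.95), of 66 of the 824 summits at 1-strand starts (8.01%, 6.35 to 10.1) and of 122 of the 1110 near no start (10.99%, 9.28 to 12.97). Around the midpoint of the starts, where no summit was used to centre the window, it was at 4.08% of pairs with a summit and 5.16% of those without. TTTCAG was present at 46.5% of members and 40.5% of all IDR summits, TATAAA at 27.1% and 24.5%, TGATAA at 24.3% and 23.9%, and CTGCGTC at 9.72% and 9.32%. GGGCGG was at 15.97% of members (10.9 to 22.8) and 11.9% of all. The median GC content was 38.0% and 40.0%. Around the midpoint of the starts, GGGCGG was at 26 of 147 pairs with a summit (17.7%) and at 6.86% of those without, where the median GC content was 36.0% and 33.3%, so the motif is compared between windows of unlike base composition.

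The pairs with a summit were spread unevenly over the chromosomes. The share of pairs was 11.9% on III (36 of 303), 10.5% on I (34 of 323), 9.66% on IV and 6.95% on II. It was lowest on V, with 19 of 435 (4.37%, 2.81 to 6.72), and on X, with 4 of 81 (4.94%, 1.94 to 12.02). In both replicates' strongest peaks V and X were again the lowest, at 3.22% and 1.23% for replicate 1 and at 3.68% and 3.70% for replicate 2. The values for X rest on 1 pair in replicate 1 and 3 in replicate 2. Genes without a divergent partner also had an IDR summit near the start less often on X (2.61%) than on the autosomes (5.10%). A low share on X is thus not particular to divergent pairs. Such a share was not taken for V.

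Summits on either side of the 500 bp limit covered much of the same range of signal. Just inside lay the summits of rsr-1 with sri-5 (497 bp from the farther start, signal 57.6), ran-1 with dkc-1 (489 bp, 53.5), nucl-1 with daf-31 (489 bp, 48.4) and rpl-12 with lin-54 (487 bp, 132.5). Just outside lay those of set-26 with tsr-2 (516 bp, 76.4), sqv-3 with vha-1 (518 bp, 102.9), mtx-1 with dnj-12 (518 bp, 53.5) and his-60 with his-59 (550 bp, 62.7).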

How the data were processed

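The ce11 peak lists of the AMA-1 ChIP-seq were used, with 2 biological replicates. Per the labels' notes, the authors made a list for each replicate from its alignments and a control, a pooled list from both, and the IDR (irreproducible discovery rate) set from these. Not given in the sources used here are the aligner, the caller and the threshold of the IDR step. The deposited score per peak is the authors' signal value, with no fixed range; it was used to rank and describe peaks within a list. The IDR set was found to hold exactly the strongest pooled peaks by signal, so it has no replicate error, and each replicate was limited to as many of its own strongest peaks for a value per replicate. Full lists hold 30000 peaks. Lists on ce10 were not used. Sequences were read for 8 pairs by signal, of which the strongest 4 are printed; 1 further promoter that qualified is not reported here.

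Gene starts are the outermost 5′ ends of protein-coding genes in Ensembl release 115 (WBcel235). Coordinates are 1-based. A divergent pair has its starts at most 1000 bp apart. Summits within 100 bp were matched. Intervals are Wilson intervals at 95%. With 1 group no test was made and all comparisons are descriptions; peaks and genes are not independent replicates. The search recovered 200 of 200 positions planted within 500 bp of both starts of annotated pairs. This checks the code and says nothing of how many true summits were called. Python 3.11.15, numpy 2.4.6, scipy 1.17.1 and matplotlib 3.10.9 were used.

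The members, the 20 gene lists (by gene name pattern) and the alternatives were chosen with earlier results of these data known. The name patterns proved imperfect and were kept: tim-1, a homolog of Timeless, fell under mitochondrial import, cyclophilins under splicing and his-24, a linker histone, under core histones, while rpl-36.A and many complex I subunits such as ndua-8 were missed. A corrected version was added as an alternative after the values were seen. The genes named are the pairs of the 15 strongest members, the 5 with the largest rank shifts each way, up to 10 pairs with both genes in lists, up to 3 genes per list and pairs with several summits. rps-6, rpl-39 with rps-30, rsp-2 with rsp-1, dnsn-1 with C24H12.4 and ndua-8 fall outside this rule and were named after their values were seen; pairs at the 500 bp limit were picked by distance.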

Additional observations from a re-analysis of the deposited data

How the results depend on the processing

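The member share (6.92%) was 2.26% with a window of 250 bp and 10.3% with 1000 bp. The pair share (8.19%) was 5.26% at 250 bp, 3.96% with only the IDR peaks above the set's median signal (the stronger part) and 13.4% with 2 times as many pooled peaks as the IDR set holds. The share of members between the starts (81.9%) was 87.2% at 250 bp, 75.2% at 1000 bp, 82.7% with every transcript start, 80.9% without peaks near short non-coding RNA genes and 75.7% with the stronger part. The share matched in both replicates (89.6%) was 93.6% at 250 bp, 88.8% at 1000 bp, 94.3% with the stronger part, 72.2% with summits matched within 50 bp, and 97.2% both within 200 bp and by overlapping intervals. The ratio of the median signal of members to that at 1-strand starts (0.974) was 0.998 at 1000 bp, 0.985 with the stronger part and 1.035 with 2 times as many pooled peaks. The cause of these changes was not tested. With 1 replicate left out, and the other's own strongest peaks used, the member share was 4.61% to 7.06%, the pair share 5.52% to 8.31%, the signal ratio 1.007 to 1.019 and the between share 79.6% to 80.2%. With name patterns corrected after the data were seen, mitochondrial import had 1 gene in a pair with a summit in place of 2, because tim-1 was dropped; ribosomal proteins had 29 in place of 28. With peaks taken up to 500 bp into each gene, added after the data were seen, the side shared by both replicates (86.7%) was 84.6%. That share stayed within its interval (80.2 to 91.3) under every alternative run. The median rank shift, the replicate 2 percentile minus that of replicate 1, was 0.543 points. It was 0.0483 at 250 bp, 0.108 with the stronger part, 0.165 with summits matched within 50 bp and 0.575 to 0.702 under the others. The 2 replicates that define this shift also give its only spread, so its stability cannot be judged. No paired analysis was possible because there is only 1 group. Depth is unknown, so nothing can be said of pairs whose polymerase signal was too low to be called.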
